A study of Mus musculus with 22 samples.

Results

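The genes of the cytosolic ribosome were followed in mouse blastocysts at embryonic day 3.5 with one-colour Illumina MouseRef-8 bead arrays, across 2 strains and 4 growth conditions. They were found by symbol: Rpl or Rps followed by a number, with Rplp0, Rplp1, Rplp2 and Rpsa, and without the Rps6k kinases and symbols that mark a pseudogene. Of 66 such genes on the array, 64 had a probe with a detection p-value under 0.05 on at least 3 of the 22 arrays, out of 9345 genes tested. They comprised 38 genes with large-subunit names and 26 with small-subunit names. Rpl17 and Rplp2, with 1 probe each, were detected on 0 arrays. The rule also takes in Rps19bp1, which encodes a binding partner of Rps19 and no ribosomal protein, and Rps23rg1, named as a retrogene of Rps23.

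Embryos of the CD1 background had been grown in KSOM medium (1 array), in ISM1 medium, in HTF medium or in vivo (3 arrays each), and those of the B6 background in KSOM, ISM1, HTF or in vivo (3 arrays each). KSOM, HTF and ISM1 are embryo culture media, and the in vivo embryos had developed in the reproductive tract. CD1 is an outbred mouse stock, and B6 is the usual short form of an inbred black mouse strain. The labels call the arrays of a group biological replicates but do not give the number of embryos or the mothers behind each, so p-values measure the spread between these samples. All groups share the embryonic day, whatever the growth condition, and each array measured RNA of whole embryos, in which fewer cells of a type and less RNA per cell cannot be told apart.

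A cytosolic ribosome joins a large subunit, which forms the peptide bonds, and a small subunit, which reads the mRNA. Each protein is normally present once per ribosome, apart from the paired proteins of the acidic stalk, so the genes are known in many tissues for closely matched expression. Their mRNAs classically begin with an unbroken run of pyrimidines, the terminal oligopyrimidine tract, through which the growth-regulating kinase mTORC1 sets their translation. A few genes have paralogs with a restricted pattern, such as Rpl39l and Rpl3l, and the blastocyst is a stage at which new ribosomes are made from the embryonic genome.

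The start regions of 10 genes are shown because the largest array-to-array differences described further on set the first 4 of them against the next 4, and because the last 2 are a paralog pair. Each sequence runs 5′ to 3′ on the gene's own strand, from 15 bases before the RefSeq start of transcription to 15 bases after it (GRCm38.p6). Capitals mark the longest run of C or T that reaches into the 5 bases on either side of the start.
Rpl22: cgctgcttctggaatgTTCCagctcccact
Rpl27a: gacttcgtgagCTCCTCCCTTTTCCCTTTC
Rps15a: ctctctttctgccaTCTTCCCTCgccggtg
Rplp0: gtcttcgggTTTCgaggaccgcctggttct
Rpl24: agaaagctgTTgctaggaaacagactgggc
Rps6: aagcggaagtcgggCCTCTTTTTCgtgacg
Rps15: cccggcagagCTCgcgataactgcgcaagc
Rpl37a: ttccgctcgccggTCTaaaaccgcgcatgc
Rpl39l: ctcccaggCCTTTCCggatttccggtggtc
Rpl39: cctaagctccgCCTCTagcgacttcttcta

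These windows lie, in the same build, at Rpl22 on chr4:152324421-152324450 (plus strand); Rpl27a on chr7:109519180-109519209 (plus strand); Rps15a on chr7:118116133-118116162 (minus strand). Those of the next genes are Rplp0 on chr5:115559452-115559481 (plus strand), Rpl24 on chr16:55966260-55966289 (plus strand), Rps6 on chr4:86857353-86857382 (minus strand) and Rps15 on chr10:80292416-80292445 (plus strand). The last are Rpl37a on chr1:72711245-72711274 (plus strand), Rpl39l on chr16:10170213-10170242 (plus strand) and Rpl39 on chrX:37085208-37085237 (minus strand). A start region was given for 56 of the 64 genes (67 regions). A run of at least 6 letters was present in 28 of these genes (50%), against 23.04% of all 27025 genes with a start region, and in 43.3% of the 67 regions, against 20.2% of all 32851. The longest, of 21 letters, was that of Rpl7a, a large-subunit protein. Among the 10 genes shown, Rpl27a had a run of 20 letters, which goes on past the end of the window shown, Rps6 one of 10 and Rps15a one of 9, while Rpl24 had a run of 2 and Rpl22 one of 4 at the start shown. A run is a description of the annotated start, which can differ from the start used in the embryo, and a shorter run says only that these letters are not in this window.

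Detection was high for most of the genes: 53 of the 64 were detected on all 22 arrays. The exceptions were Rpl7a (5 arrays), Rpl3l and Rps23 (6 each), Rpsa (14), Rps15a (15), Rpl21 and Rpl22l1 (16 each), Rps23rg1 (17), Rpl6 (18), Rpl14 (20) and Rps19bp1 (21). A low reading from a probe for a general ribosomal protein, such as Rps23 or Rpl7a, describes that probe. Array medians of the deposited intensity lay between 90.6 and 154, and 7410 to 9400 probes per array were detected at p under 0.01. Markers of the labelled stage were present: 6 of 7 trophectoderm genes and 5 of 6 inner cell mass and epiblast genes were detected on 20 or more arrays, with Fgf4 on 1, and Gata4 of the primitive endoderm was detected on 9. Of markers of other cells, the 4 fibroblast collagen and matrix genes and the 3 cumulus genes on the array were detected on 0 arrays, as were Ptprc, Krt5 and Pgr. Ovgp1 of the oviduct was detected on 6 arrays and Hba-a1 of red cells on 3, while Foxj1 (22) and Muc1 (19) of the epithelial list were widely detected.

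Averaged over the 64 genes, the log2 level per array had group means between 11.23 and 11.51. In CD1 it was 11.51 on the single KSOM array, 11.23 ± 0.09 in ISM1 and 11.32 ± 0.08 in HTF, against 11.33 ± 0.13 in vivo (SD, n = 3 for groups with an SD). In B6 it was 11.47 ± 0.26 in KSOM, 11.28 ± 0.08 in ISM1 and 11.27 ± 0.17 in HTF, against 11.48 ± 0.27 in vivo (SD, n = 3 each). Ordered from high to low, the groups ran CD1 KSOM, B6 in vivo, B6 KSOM, CD1 in vivo, CD1 HTF, B6 ISM1, B6 HTF and CD1 ISM1, and neighbours in this order lay within 1 SD of each other, except that B6 KSOM and CD1 in vivo were further apart than the CD1 in vivo SD of 0.13, though not than the B6 KSOM SD of 0.26. The widest groups were B6 in vivo, with 11.46, 11.22 and 11.75, and B6 KSOM, with 11.36, 11.29 and 11.76. In each of these, replicate 3 stood above its 2 companions and above every array of the other groups.

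The same 2 arrays stood out in the deposited intensities before any normalization. The 77 detected probes of these genes took 5.39% of the summed intensity on B6 KSOM replicate 3 and 4.79% on B6 in vivo replicate 3, and the lowest share was 3.29%, on B6 in vivo replicate 2. The single CD1 KSOM array had 4.74%. Replicates of the one B6 in vivo group thus spanned most of the range of all arrays. Group means of the share were 4.27% ± 0.972 in B6 KSOM, 3.64% ± 0.248 in B6 ISM1 and 3.62% ± 0.229 in B6 HTF, against 3.98% ± 0.759 in B6 in vivo (SD, n = 3 each).

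**Figure D1:**
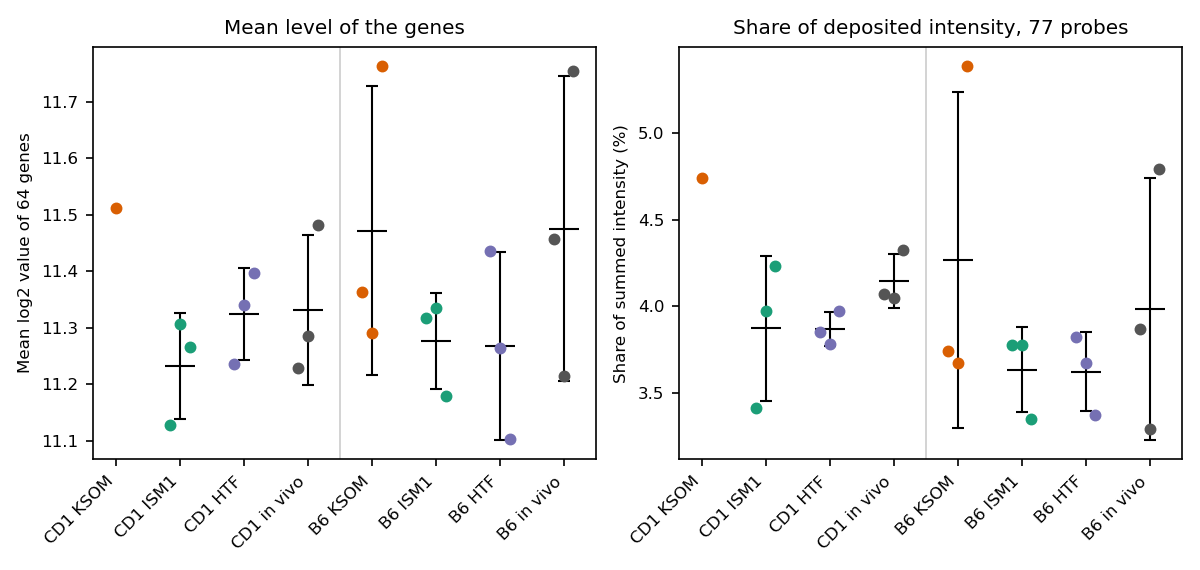
Points are single arrays, grouped by strain and growth condition, and black marks are the group mean with 1 SD (no mark for the 1 CD1 KSOM array). The left panel plots the mean log2 value of the 64 genes, and the right panel the share (%) of the array's summed deposited intensity taken by their 77 detected probes, where B6 KSOM replicate 3 is highest at 5.39%.

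No ribosomal protein gene passed the test in any comparison of growth conditions or strains. With limma fitted to all 9345 genes and a Benjamini-Hochberg adjusted p under 0.05 as the call, 0 of the 64 were called in each of 17 contrasts. The background was low as well: the share of all genes called was 0.0107% for B6 HTF against in vivo, CD1 HTF against in vivo, B6 KSOM against HTF and for CD1 against B6 in each of in vivo, HTF and ISM1. It was 0.0428% for CD1 ISM1 against HTF, 0.203% for HTF against in vivo averaged over the strains, 0.235% for CD1 against B6 averaged over HTF, ISM1 and in vivo, and 0% for the other 8 contrasts. The median SE of a difference between 2 groups of 3 arrays was 0.33 on the log2 scale over these genes, so that shifts of about that size lay within the error of this number of arrays. Larger shifts went uncalled too: Rpl39l, at -1.66 ± 0.43 (SE) for B6 KSOM against ISM1, had a limma adjusted p of 0.18. At an unadjusted p under 0.05, 0 of the 64 genes passed for B6 HTF against in vivo (3.39% of all genes), B6 ISM1 against in vivo (1.19%), CD1 ISM1 against in vivo (5.04%), B6 ISM1 against HTF (1.84%) and CD1 ISM1 against HTF (3.58%). The count was also 0 for CD1 against B6 in HTF (2.51%) and in ISM1 (2.49%), and for the strain differences in the HTF effect (1.99%) and in the ISM1 effect (2.38%). It was 1 for CD1 HTF against in vivo (7.06%), B6 KSOM against in vivo (5.92%) and HTF against in vivo averaged over strains (8.25%), 2 for ISM1 against in vivo averaged over strains (3.29%), and 3 for B6 KSOM against HTF (9.53%) and against ISM1 (12.3%). It reached 4 for CD1 against B6 in vivo (9.61%) and 7 in the averaged strain contrast (10.1%). The share of the 64 genes was below that of all genes in these contrasts, except in the averaged strain contrast, where it was slightly above.

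Calls appeared under 2 other settings of the model, in which many other genes were called too. With estimated array weights, 7 of the 64 were called for B6 HTF against in vivo (12.4% of all genes), 3 for B6 ISM1 against in vivo (14.2%), 1 for B6 KSOM against HTF (2.36%), 1 for B6 KSOM against ISM1 (5.94%) and 3 for B6 ISM1 against HTF (7.16%). With arrays scaled to a common median in place of quantile normalization, 5 of the 64 were called lower in the averaged strain contrast, where 5.95% of all genes were.

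For HTF medium, the median log2 difference of the 64 genes from in vivo embryos was 0.02 in CD1, with 34 of 64 positive, and -0.19 in B6, with 18 of 64 positive. Over all genes tested the medians were 0.03 in CD1 and 0.01 in B6. The CD1 value was -0.03 without CD1 HTF replicate 3 and 0.11 without CD1 HTF replicate 1. The B6 value rested in part on single in vivo arrays, since it was -0.08 without B6 in vivo replicate 3 and -0.33 without B6 in vivo replicate 2. The difference between the strains in the HTF effect had a median of 0.26 over the 64 genes and 0.03 over all genes, with 0 genes called and 0 of the 64 at an unadjusted p under 0.05. Its median was 0.15 without B6 HTF replicate 3 and 0.37 without B6 HTF replicate 1. In this contrast the 64 single differences ran from -1.63 to 1.199.

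For ISM1 medium, the median difference from in vivo embryos was -0.10 in CD1 (23 of 64 positive) and -0.14 in B6 (15 of 64 positive), beside 0.00 over all genes in each strain. It was 0.02 in CD1 without CD1 ISM1 replicate 1 and -0.03 in B6 without B6 in vivo replicate 3. For KSOM in B6, the median against in vivo was -0.005, and it was 0.18 without B6 in vivo replicate 3 and -0.13 without B6 in vivo replicate 2. Against the other media, B6 KSOM had a median of 0.17 over ISM1, with 46 of 64 positive, and of 0.16 over HTF, with 51 of 64 positive. Without B6 KSOM replicate 3 these were 0.02 and 0.06. The comparisons of media with in vivo embryos share the in vivo arrays of a strain, and those of KSOM share the KSOM arrays, so they are not independent of each other.

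Between strains, the median of CD1 minus B6 was -0.13 in vivo, 0.08 in HTF and -0.01 in ISM1, against 0.01, 0.02 and -0.01 over all genes. Single arrays moved each of these. The in vivo median was -0.02 without B6 in vivo replicate 3 and -0.23 without CD1 in vivo replicate 3. The HTF median was -0.02 without B6 HTF replicate 3 and 0.23 without B6 HTF replicate 1, and the ISM1 median -0.10 without CD1 ISM1 replicate 2 and 0.08 without CD1 ISM1 replicate 1. In vivo the 26 small-subunit genes had a median of -0.25 and the 38 large-subunit genes one of -0.07. With median scaling, the in vivo strain medians were -0.51 over the 64 genes and -0.49 over all genes, so that the genes moved with the array as a whole under that scaling. It then called 7 of the 64 as lower in CD1 in vivo (Rpl29, Rps10, Rps13, Rps15, Rps16, Rps6 and Rps7), that is 10.9% of them, and 6.2% of all genes.

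**Figure D2:**
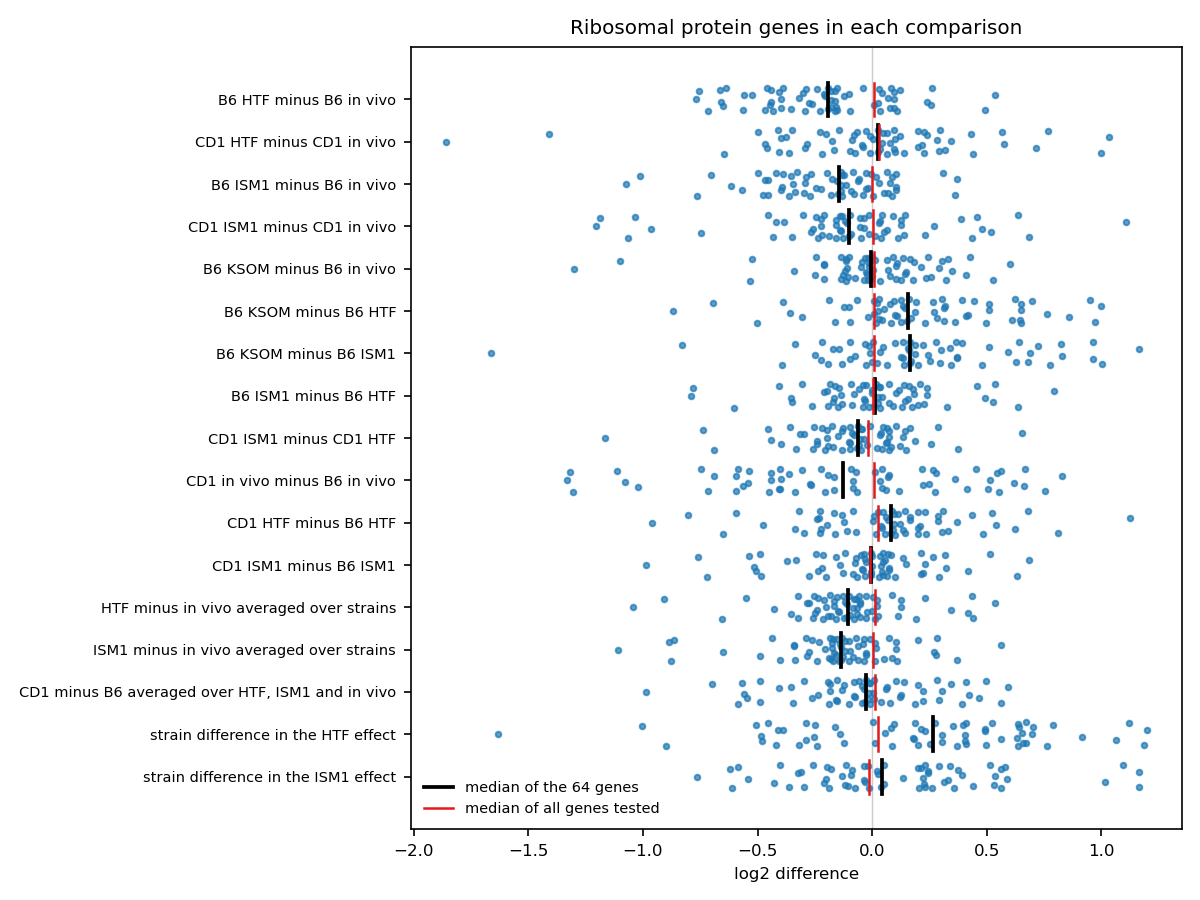
Each point is the log2 difference of 1 of the 64 ribosomal protein genes in 1 of 17 comparisons, with the first-named group minus the second. Black bars are the medians of the 64 genes and red bars those of all 9345 genes tested. The 2 lie within 0.3 of each other in every row, and the points spread to both sides of 0.

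Counts of genes whose arrays did not overlap between the groups were mostly below the background: in 19 of 24 counts the share of the 64 genes was below that of all genes, in 13 of these under 50% of it, and in 5 it was above. For CD1 HTF against B6 HTF, 6 of 64 lay wholly higher in CD1 and 0 wholly lower, where 8.15% and 5.41% of all genes did so. For B6 KSOM against ISM1, 4 lay wholly higher and 1 wholly lower (8.81% and 7.15% of all genes), and for B6 KSOM against HTF, 2 and 3 (8.74% and 6.28%). For CD1 in vivo against B6 in vivo, 4 lay higher and 3 lower (5.14% and 5.23%), and for CD1 HTF against in vivo 1 and 3 (6.06% and 4.32%). For CD1 ISM1 against in vivo the counts were 2 and 2 (2.66% and 2.54%), for CD1 ISM1 against B6 ISM1 2 and 1 (3.77% and 4.24%), for B6 ISM1 against HTF 1 and 3 (5.2% and 5.02%), and for CD1 ISM1 against HTF 0 and 2 (3.54% and 5.16%). For B6 embryos against in vivo they were 1 and 1 in HTF (5.6% and 5.22%), 0 and 1 in ISM1 (4.55% and 3.73%) and 0 and 1 in KSOM (4.78% and 3.4%). In the averaged contrasts, 0 of 64 separated all arrays in either direction on the probe used for each gene. Of all genes, 1.12% and 0.717% did so for HTF, 0.193% and 0.161% for ISM1, and 0.15% and 0.203% for strain. These counts leave out the dimmer probes of a gene. A second Rpl7l1 probe did separate the strains in HTF, ISM1 and in vivo, lower in CD1 (-1.27 averaged, against -0.01 on the probe used), as given further on.

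Among the genes without overlap, 6 had small differences and low spread. Rpl10, a large-subunit protein added late in assembly, was -0.32 ± 0.23 (SE) in B6 HTF and -0.24 ± 0.23 (SE) in B6 ISM1 against B6 in vivo, and -0.44 ± 0.23 (SE) in CD1 in vivo against B6 in vivo (-0.22 without CD1 in vivo replicate 1). Its log2 values on the CD1 in vivo arrays were 13.91, 14.45 and 14.70, against 14.80, 14.77 and 14.80 on the B6 in vivo arrays, so that the B6 arrays were tightly placed and the CD1 arrays spread below them. Rps20, the steadiest gene of all, differed by 0.09 in B6 HTF and by -0.16 in CD1 ISM1, each against in vivo. The others were Rpl23 (-0.38 ± 0.21 (SE) for CD1 HTF against in vivo), Rpl35a (-0.26 ± 0.21 (SE) for CD1 ISM1 against in vivo), Rps24 (-0.20 ± 0.22 (SE) for B6 ISM1 against HTF) and Rpl28 (0.28 ± 0.20 (SE) for B6 KSOM against ISM1). The sign for Rpl23 depended on the probe: the mean of its 4 kept probes gave 0.02. Without CD1 HTF replicate 2, Rpl23 was -0.22, without CD1 ISM1 replicate 3, Rps20 was -0.10, and without B6 ISM1 replicate 3, Rpl28 was 0.18 in these comparisons.

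Differences without overlap in other genes were also short of the adjusted threshold. Rpl35 was 0.72 ± 0.44 (SE) in CD1 HTF and 0.52 ± 0.44 (SE) in CD1 ISM1, each against in vivo. It was -0.75 ± 0.44 (SE) for CD1 against B6 in vivo. The Rpl35 difference was 0.17 in CD1 HTF without CD1 HTF replicate 2, 0.29 in CD1 ISM1 without CD1 ISM1 replicate 1, and -0.50 between the strains without B6 in vivo replicate 3. Rps26, a small-subunit protein at the mRNA exit, stood 0.62 ± 0.29 (SE) higher in B6 KSOM than in HTF and 0.51 ± 0.29 (SE) higher than in ISM1. Rpl4 was -0.36 ± 0.29 (SE) in B6 KSOM and -0.19 ± 0.29 (SE) in B6 ISM1 against B6 HTF, and -0.40 ± 0.29 (SE) in CD1 ISM1 against CD1 HTF. The first of these was -0.22 without B6 KSOM replicate 3, and the second -0.12 without B6 ISM1 replicate 2. A second Rpl4 probe gave 0.08, -0.03 and -0.33 in the same order, so the sign of the first depended on the probe. Rps3, which lines the mRNA entry channel, was 0.46 ± 0.26 (SE) in CD1 ISM1 against in vivo, but 0.11 without CD1 in vivo replicate 2. Rps25 was -0.26 ± 0.32 (SE) in B6 ISM1 against HTF.

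The smallest p-value of any ribosomal protein gene belonged to Rpl39l, a large-subunit paralog of Rpl39 that is best known from the testis and from pluripotent cells. Its log2 values in B6 were 6.87, 7.21 and 6.85 on the B6 KSOM arrays, 8.43, 9.28 and 8.21 on the B6 ISM1 arrays, 7.38, 8.01 and 8.16 on the B6 HTF arrays, against 7.61, 8.36 and 8.87 on the B6 in vivo arrays. In CD1 they were 8.38 on the CD1 KSOM array, 8.02, 8.80 and 8.96 on the CD1 ISM1 arrays, 8.53, 7.92 and 8.96 on the CD1 HTF arrays, against 8.12, 9.44 and 8.10 on the CD1 in vivo arrays. The B6 KSOM arrays were below every B6 array of the other 3 conditions, and below every CD1 array, the CD1 KSOM array included. The difference was -1.66 ± 0.43 (SE, limma adjusted p = 0.18) from B6 ISM1, -0.87 ± 0.43 (SE, limma adjusted p = 0.529) from B6 HTF and -1.30 ± 0.43 (SE, limma adjusted p = 0.618) from B6 in vivo, with unadjusted p-values of 0.00121, 0.0594 and 0.00761. With estimated array weights the difference from ISM1 was -2.02 (limma adjusted p = 0.0103), and over the other alternatives and each array left out in turn it ranged from -1.88 to -1.11 without a call. Rpl39 itself, whose protein lines the exit tunnel of the large subunit, was -0.08 in the same comparison, with values of 12.75, 13.43 and 13.09 on the B6 KSOM arrays, against 12.89, 13.37 and 13.22 on the B6 ISM1 arrays. The 3 and 3 values of Rpl39 overlapped. For Rpl39, all 3 CD1 HTF arrays (13.64, 13.30 and 13.52) lay above all 3 B6 HTF arrays (13.07, 13.04 and 12.90), a difference of 0.48 ± 0.23 (SE) with an unadjusted p of 0.0507.

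Rpl29, a large-subunit protein that also binds heparin, had the smallest p-value between the strains. Its log2 values were 12.68 on the CD1 KSOM array, 11.57, 11.91 and 12.18 on the CD1 ISM1 arrays, 11.83, 12.16 and 12.57 on the CD1 HTF arrays, against 12.13, 11.81 and 12.20 on the CD1 in vivo arrays. In B6 they were 13.93, 12.64 and 13.85 on the B6 KSOM arrays, 12.88, 12.88 and 12.18 on the B6 ISM1 arrays, 12.98, 12.24 and 12.29 on the B6 HTF arrays, against 13.33, 12.56 and 13.31 on the B6 in vivo arrays. All 3 CD1 in vivo arrays lay below all 3 B6 in vivo arrays, while in HTF the 2 strains overlapped. In ISM1 the strains met: the highest CD1 array lay at 12.177 and the lowest B6 array at 12.185. The difference of CD1 from B6 was -1.02 ± 0.36 (SE, limma adjusted p = 0.442) in vivo and -0.70 ± 0.21 (SE, limma adjusted p = 0.214) averaged over in vivo, HTF and ISM1. Within B6 it was higher in KSOM than in HTF by 0.97 ± 0.36 (SE), with an unadjusted p of 0.0154. KSOM replicates 1 and 3 were highest (13.93 and 13.85), and replicate 2 lay at 12.64 among the other B6 arrays.

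A second Rpl29 probe gave values of 5.63 on the CD1 KSOM array, 5.22, 5.28 and 5.95 on the CD1 ISM1 arrays, 5.22, 5.61 and 5.18 on the CD1 HTF arrays and 6.16, 4.73 and 5.35 on the CD1 in vivo arrays. In B6 it gave 7.77, 7.07 and 8.68 in KSOM, 7.39, 7.26 and 5.81 in ISM1 and 7.33, 6.69 and 6.42 in HTF, against 7.22, 6.37 and 8.04 in vivo. Its strain difference was -1.80 in vivo and -1.54 on average, and it correlated with the first probe at r = 0.87 over the 22 arrays, which both share. On this probe 2 of the CD1 arrays, ISM1 replicate 3 and in vivo replicate 1, lay above the lowest B6 array.

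Other genes with an unadjusted p under 0.05 between the strains were 6 of the small subunit and 2 of the large one. Rps6, the substrate of the S6 kinases, had log2 values of 10.47 on the CD1 KSOM array, 8.36, 10.54 and 10.28 on the CD1 ISM1 arrays, 9.39, 10.52 and 9.66 on the CD1 HTF arrays, against 9.90, 8.78 and 9.19 on the CD1 in vivo arrays. In B6 they were 9.62, 9.95 and 11.90 on the B6 KSOM arrays, 11.05, 10.70 and 10.39 on the B6 ISM1 arrays, 10.72, 10.69 and 10.10 on the B6 HTF arrays, against 11.14, 9.42 and 11.26 on the B6 in vivo arrays. All CD1 in vivo arrays but one lay below every B6 in vivo array, and in ISM1 and HTF the strains overlapped. The average strain difference was -0.99 ± 0.37 (SE, limma adjusted p = 0.353). Rps16 was -0.58 ± 0.25 (SE) and Rps10 -0.49 ± 0.21 (SE) in the same contrast, while Rpl36al (0.56 ± 0.24 (SE)) and Rpl39 (0.29 ± 0.13 (SE)) had positive differences. For Rps23, no size is given, since its probe was detected on 1 of 3 CD1 ISM1, 1 of 3 CD1 HTF and 2 of 3 CD1 in vivo arrays, against 0 of 3 B6 ISM1, 0 of 3 B6 HTF and 1 of 3 B6 in vivo arrays. In vivo alone, Rps2 (-1.33 ± 0.58 (SE)) and Rps15 (-1.30 ± 0.60 (SE)) had negative differences, the Rps2 value with 1 array far below the rest (13.60, 10.30 and 13.10 on the CD1 in vivo arrays, against 13.52, 13.13 and 14.35 on the B6 in vivo arrays). Rpl36a was 0.51 ± 0.30 (SE) in the in vivo contrast, with an unadjusted p of 0.0998 in limma, and 0.11 with the arrays' log2 median intensity as a covariate.

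Rpl21, a large-subunit protein, had the largest difference among the tested contrasts of a medium with in vivo growth, from which the single CD1 KSOM array was left out. Its log2 values were 4.80, 6.12 and 4.93 on the CD1 HTF arrays, against 6.63, 6.96 and 7.85 on the CD1 in vivo arrays, and all 3 HTF arrays lay below the in vivo arrays. The difference was -1.86 ± 0.58 (SE, limma adjusted p = 0.44). In B6 the values were 5.58, 5.95 and 6.73 on the B6 HTF arrays, against 5.96, 6.56 and 6.42 on the B6 in vivo arrays, which overlapped, with a difference of -0.23. The probe was detected on 1 of 3 CD1 HTF arrays and 3 of 3 CD1 in vivo arrays, so that the HTF values lay mostly at background and the size is uncertain, and a second probe of the gene gave -0.23 in CD1. Without background correction the CD1 value was -0.81, and in the authors' log2 table -2.61. Rps15a, of the small subunit, had a difference of the same sign in CD1 (-1.41 ± 0.69 (SE)), with values of 5.69, 5.09 and 4.98 on the CD1 HTF arrays, against 6.18, 6.40 and 7.41 on the CD1 in vivo arrays. It too was detected on 1 of 3 CD1 HTF and 3 of 3 CD1 in vivo arrays, and without background correction its difference was -0.56. In the strain comparison of in vivo embryos, the Rpl21 difference was 0.83 ± 0.58 (SE). It was 0.48 without CD1 in vivo replicate 3, 0.05 with median scaling and 1.52 with the log2 median intensity as a covariate. The second probe of Rpl21 had the opposite sign in this comparison (-0.27).

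**Figure D3:**
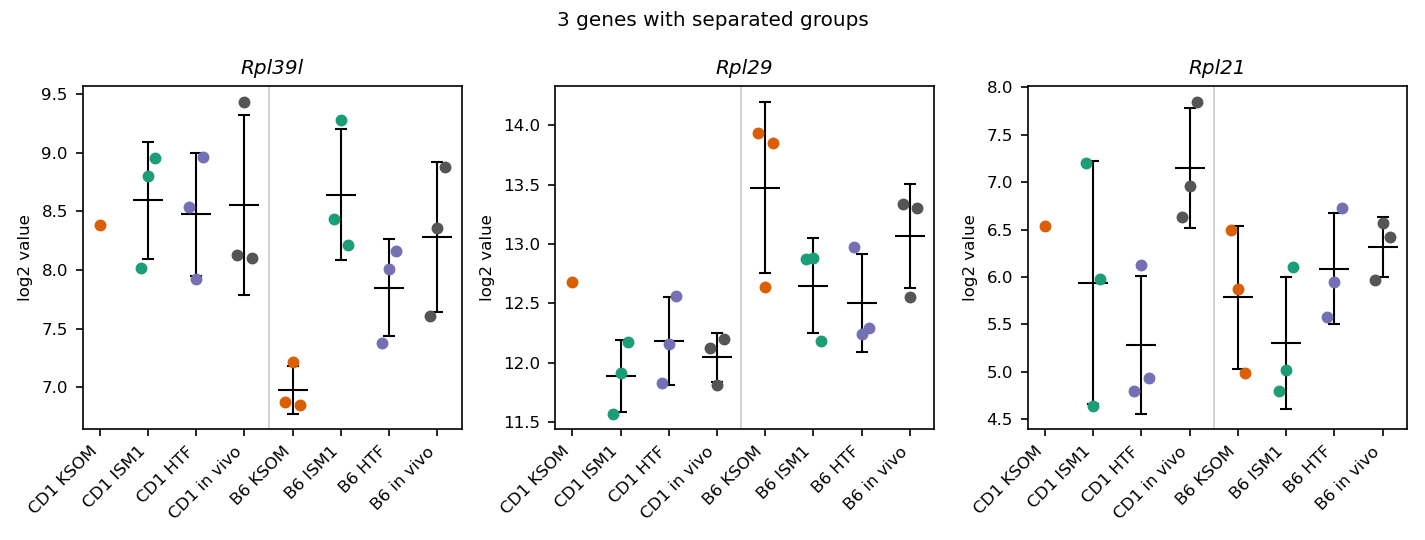
Log2 values of Rpl39l, Rpl29 and Rpl21 on each array (points), by strain and growth condition, with the group mean and 1 SD in black. Rpl39l is lowest on the 3 B6 KSOM arrays, Rpl29 lies lower on the CD1 than on the B6 in vivo arrays, and Rpl21 lies lower on the CD1 HTF than on the CD1 in vivo arrays; none of these passed the adjusted threshold.

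The genes did not vary as one block. On the first principal component of the 64 genes over the 22 arrays, which held 39.5% of their variance, 16 genes had positive and 48 negative loadings, the sign of a component being arbitrary. Genes were not scaled to equal variance, so the most variable ones weighed most. The component's value per array correlated with the mean level of the 64 genes at r = -0.66, so it also held part of their shared level. At the positive end stood Rpl22, Rpl27a, Rps15a, Rplp0, Rpl21 and Rpl14, and at the negative end Rpl24, Rps6, Rps15, Rpl37a, Rps16 and Rps27. These 12 were chosen after their values were seen, so the following correlations describe the choice. Over the 22 arrays, Pearson's r ran from 0.17 to 0.82 (median 0.46) among the first 6, from 0.58 to 0.90 (median 0.78) among the last 6, and from -0.71 to -0.06 (median -0.43) between them. Both ends mix the 2 subunits, and both hold genes with a long pyrimidine run at the start (Rpl27a and Rps6). At the positive end, Rps15a, Rpl21 and Rpl14 had low signal (means of 5.98, 6.01 and 6.44) and were detected on 15, 16 and 20 arrays.

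This axis ran within the groups. Differences between replicates of one group made up 69.7% of the variance of the 64 genes, and 65.2% of that of all genes, on 14 of 21 degrees of freedom. When computed from deviations from the group means alone, the first component had loadings that correlated with the original ones at r = 0.97 across genes. The highest component scores were 5.46 on CD1 ISM1 replicate 1, 4.72 on CD1 in vivo replicate 2, 3.26 on CD1 in vivo replicate 3 and 3.21 on B6 ISM1 replicate 3. The lowest were -4.76 on B6 in vivo replicate 3, -4.07 on B6 KSOM replicate 3 and -2.39 on CD1 ISM1 replicate 3. Replicates of CD1 ISM1 thus lay near both ends, and those of B6 in vivo did too, with 2.90 on replicate 2.

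**Figure D4:**
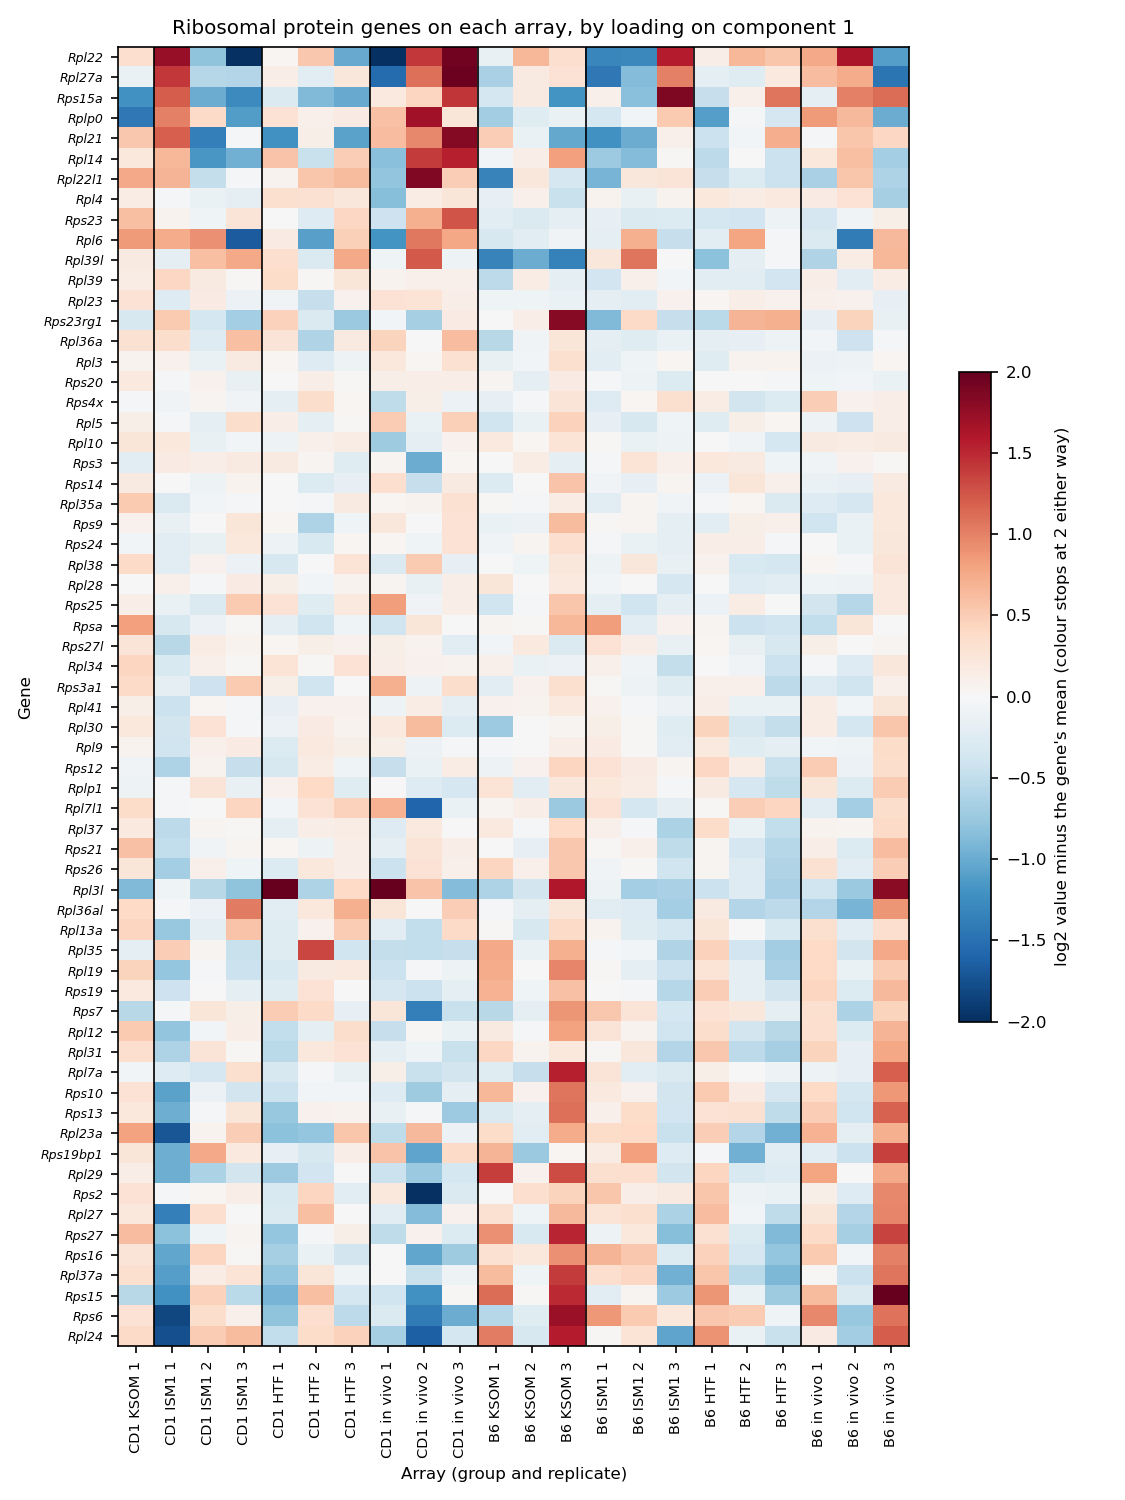
Rows are the 64 ribosomal protein genes, ordered by loading on their first component, and columns the 22 arrays by group. Colour is the log2 value minus the gene's mean over all arrays, with colours ending at 2 in either direction. The top and bottom rows take opposite colours on single arrays, such as CD1 ISM1 replicate 1 and B6 in vivo replicate 3, and columns of one group differ among themselves.

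Rpl22, a large-subunit protein also known to bind specific RNAs outside the ribosome, was the most variable gene, with an SD of 1.46 over the 22 arrays. Its log2 values were 9.41 on the CD1 KSOM array, 10.82, 8.27 and 5.50 on the CD1 ISM1 arrays, 9.12, 9.61 and 8.07 on the CD1 HTF arrays, against 5.98, 10.49 and 11.01 on the CD1 in vivo arrays. In B6 they were 8.93, 9.74 and 9.41 on the B6 KSOM arrays, 7.77, 7.78 and 10.65 on the B6 ISM1 arrays, 9.21, 9.74 and 9.63 on the B6 HTF arrays, against 9.83, 10.70 and 7.97 on the B6 in vivo arrays. Replicates of CD1 ISM1 and of CD1 in vivo were more than 5 apart on the log2 scale, and the groups overlapped throughout. No contrast of Rpl22 passed the test, and the smallest unadjusted p over the 17 contrasts was 0.343.

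Rpl27a, another large-subunit protein, followed the same arrays. Its values were 9.54 on the CD1 KSOM array, 11.08, 9.11 and 9.09 on the CD1 ISM1 arrays, 9.80, 9.45 and 9.89 on the CD1 HTF arrays, against 8.14, 10.76 and 11.62 on the CD1 in vivo arrays. In B6 they were 9.03, 9.85 and 9.96 on the B6 KSOM arrays, 8.24, 8.81 and 10.68 on the B6 ISM1 arrays, 9.48, 9.43 and 9.87 on the B6 HTF arrays, against 10.28, 10.41 and 8.21 on the B6 in vivo arrays. The arrays high for Rpl22 in CD1 ISM1, B6 ISM1 and CD1 in vivo were again high for Rpl27a.

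Rpl24, a large-subunit protein that bridges to the small subunit and is mutated in a classical mouse tail mutant, lay opposite. Its values were 7.90 on the CD1 KSOM array, 5.76, 8.03 and 8.15 on the CD1 ISM1 arrays, 7.02, 7.88 and 7.97 on the CD1 HTF arrays, against 6.84, 5.88 and 7.16 on the CD1 in vivo arrays. In B6 they were 8.54, 7.19 and 9.08 on the B6 KSOM arrays, 7.54, 7.79 and 6.46 on the B6 ISM1 arrays, 8.41, 7.38 and 7.06 on the B6 HTF arrays, against 7.68, 6.82 and 8.72 on the B6 in vivo arrays. CD1 ISM1 replicate 1 and B6 ISM1 replicate 3 were lowest in their groups here and highest for Rpl22. The difference of CD1 from B6 in vivo was -1.11 ± 0.66 (SE, limma adjusted p = 0.601).

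**Figure D5:**
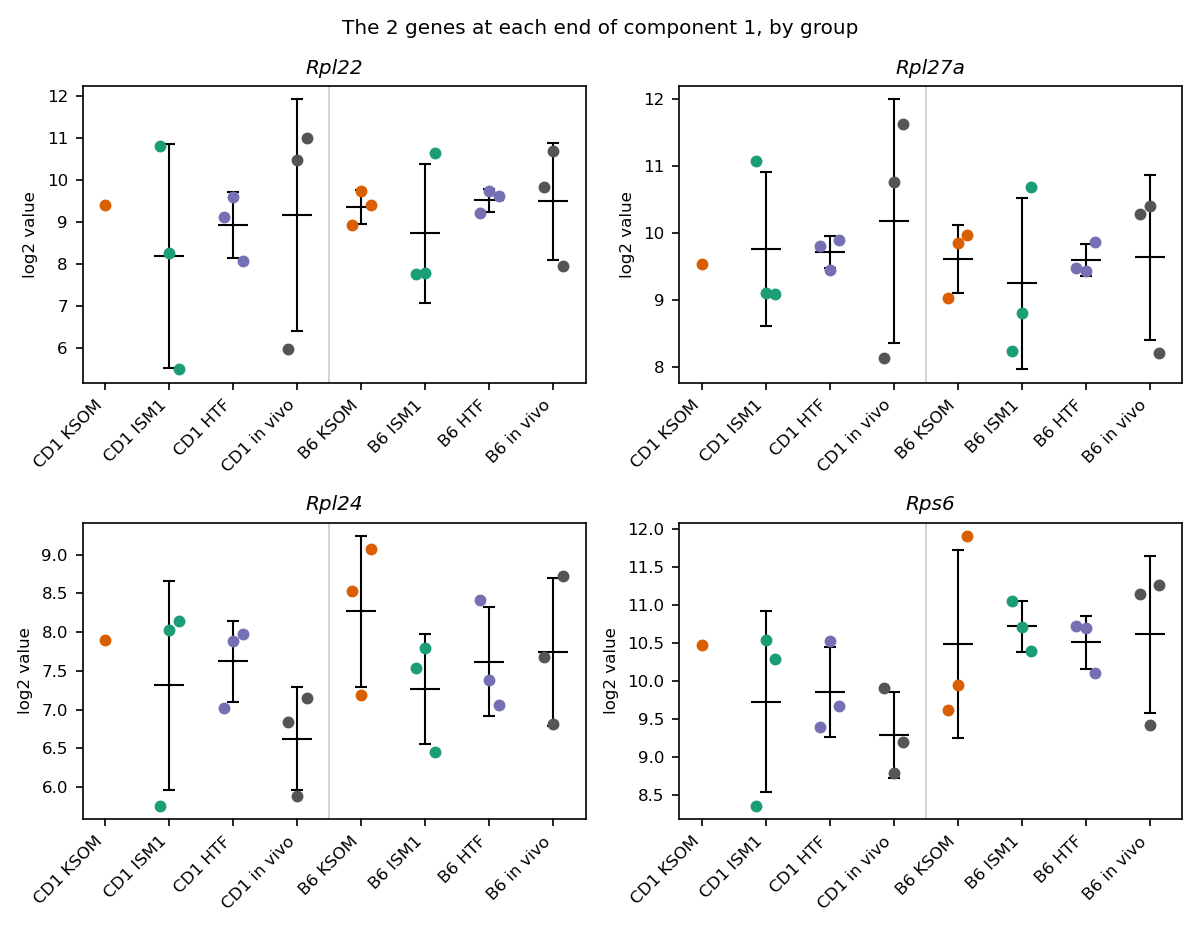
Log2 values on each array (points) of the 2 genes with the most positive loadings (Rpl22 and Rpl27a, top) and the 2 with the most negative ones (Rpl24 and Rps6, bottom), by strain and growth condition, with the group mean and 1 SD in black. Spread within groups such as CD1 ISM1 is wider than the distance between group means.

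The mean levels of marker lists for the embryo's cell types moved with this axis over the 22 arrays. The mean of the 7 trophectoderm markers ranged from 9.71 to 12.2 on the log2 scale and was higher on arrays with a higher score (Pearson's r = 0.75, Spearman's rho = 0.74, r = 0.71 without the 2 arrays farthest from the median score, r = 0.89 for deviations from group means). The mean of the 4 primitive endoderm markers ranged from 6.92 to 10.4 (r = 0.78, rho = 0.86, 0.73 and 0.89 on the same terms). The mean of the 5 measured inner cell mass and epiblast markers ran the other way, from 9.09 to 10.4 (r = -0.63, rho = -0.49, -0.53 and -0.65 on the same terms). Single markers were uneven. For the trophectoderm, r was 0.84 for Elf5, 0.72 for Eomes and 0.68 for Tfap2c. It was 0.45 for Cdx2 and Gata3, 0.21 for Krt18 and 0.07 for Krt8. For the inner cell mass and epiblast, r was -0.81 for Pou5f1, -0.30 for Nanog and -0.11 for Sox2. Klf4 (0.29) and Esrrb (0.37) of that list went the other way. For the primitive endoderm, r was 0.79 for Sox17, 0.68 for Pdgfra and 0.28 for Gata6, but -0.19 for Gata4. On CD1 ISM1 replicate 1 the trophectoderm and primitive endoderm means were 12.05 and 9.998, and on B6 in vivo replicate 3 they were 9.80 and 7.26.

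A list of 8 measured genes of p53 and its ribosomal stress arm moved against the score, with a mean from 7.31 to 9.44 (r = -0.89, rho = -0.87, -0.85 and -0.90 on the same terms). The direction was not particular to that list. For the ribosome assembly genes r was -0.68 (rho = -0.70, -0.56 and -0.80 on the same terms). For the translation initiation factors it was -0.41 (rho = -0.30, -0.12 and -0.38). The number of probes detected had r = -0.50 with the score (rho = -0.41, -0.27 and -0.48 on the same terms). The median intensity had r = 0.02 over all arrays (rho = 0.02, 0.10 on the same terms), but 0.44 for deviations from group means. The first component of all 9345 genes, which held 27.3% of their variance, correlated with that of the ribosomal protein genes at r = 0.96, so the axis was shared with the array as a whole. These measures come from the same arrays and were related after the axis had been seen, and their part in the axis was not tested.

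The steadiest genes over the 22 arrays were Rps20 (SD 0.12), Rpl28 (0.15), Rpl41 (0.16), Rpl3 (0.16), Rps24 (0.17) and Rpl9 (0.19). The most variable were Rpl22 (1.46), Rpl3l (1.01), Rps15a (0.95), Rpl27a (0.92), Rpl21 (0.87) and Rpl24 (0.86). This ranking is tied to signal level. The 18 genes with a mean above 14, which include all the steadiest named, had SDs from 0.12 to 0.38. The other 46 had SDs from 0.20 to 1.46. The highest value of any gene on an array lay between 14.97 and 15.12, so the brightest genes sat near the top of the scale. Rpl3l, Rps15a and Rpl21 were detected on 6, 15 and 16 arrays.

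Each gene was also set against the mean of the other 63 on each array, as a description. The correlation over the 22 arrays was positive for 52 of 64 genes and above 0.5 for 28, with a median of 0.45. It was highest for Rps27 (0.88), Rps21 (0.86), Rpl12 (0.86), Rpl19 (0.83) and Rps26 (0.82). It was lowest for Rplp0 (-0.45), Rps15a (-0.38), Rpl4 (-0.37), Rpl39l (-0.26) and Rpl27a (-0.25). Rps27, a zinc-finger protein of the small subunit, had values of 11.47, 10.25 and 12.09 on the B6 KSOM arrays, 10.45, 10.76 and 9.70 on the B6 ISM1 arrays, 10.86, 10.28 and 9.68 on the B6 HTF arrays, against 10.95, 9.90 and 11.92 on the B6 in vivo arrays. Its values in CD1 were 11.18 on the CD1 KSOM array, 9.74, 10.47 and 10.61 on the CD1 ISM1 arrays, 9.79, 10.53 and 10.68 on the CD1 HTF arrays, against 10.05, 10.64 and 10.29 on the CD1 in vivo arrays. B6 KSOM replicate 3 and B6 in vivo replicate 3 were the highest, as for the mean of all 64 genes.

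Of the stalk genes, Rplp0 (the base of the stalk) and Rplp1 (a member of the paired acidic proteins) were measured. Rplp0 had values of 8.66 on the CD1 KSOM array, 11.10, 10.47 and 8.98 on the CD1 ISM1 arrays, 10.39, 10.19 and 10.26 on the CD1 HTF arrays, against 10.68, 11.78 and 10.33 on the CD1 in vivo arrays. In B6 they were 9.39, 9.86 and 9.96 on the B6 KSOM arrays, 9.74, 10.03 and 10.61 on the B6 ISM1 arrays, 8.99, 10.06 and 9.75 on the B6 HTF arrays, against 10.94, 10.74 and 9.11 on the B6 in vivo arrays. The single CD1 KSOM array was the lowest of all 22, and all CD1 HTF arrays lay above all B6 HTF arrays (0.68 ± 0.54 (SE), and 0.38 without B6 HTF replicate 1). Rplp1 was steady, from 13.79 to 14.82, and its correlation with the mean of the others was 0.48, where that of Rplp0 was negative. A second Rplp0 probe correlated with the first at r = 0.64.

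Other genes with known roles beyond bulk translation had no called difference either. Rpl5, which with 5S RNA can bind the p53 regulator Mdm2, ranged from 13.59 to 14.52. Rps19, mutated in human Diamond-Blackfan anaemia, ranged from 13.47 to 14.74, with -0.59 ± 0.31 (SE) for CD1 against B6 in vivo. Rpl38, mutated in the mouse Tail short strain, ranged from 13.92 to 14.79. Rps4x, X-linked as are Rpl10, Rpl36a and Rpl39, ranged from 13.62 to 14.62. Rpsa, also known as the laminin receptor, was near the detection limit, with values from 5.11 to 6.43 on a probe detected on 14 arrays. Rps19bp1 ranged from 5.36 to 7.78, and its correlation with the mean of the others was 0.45.

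The paralogs with an l in their symbol were read beside their partners, probe by probe. Rpl3l, the form known from heart and skeletal muscle, was detected on 6 arrays. It was detected on 0 of 3 CD1 ISM1, 0 of 3 B6 ISM1, 0 of 3 B6 HTF and 0 of 1 CD1 KSOM arrays, and on 2 of 3 CD1 HTF, 2 of 3 CD1 in vivo, 1 of 3 B6 KSOM and 1 of 3 B6 in vivo arrays. Rpl3 was detected on all and ranged from 14.18 to 14.75. Rpl22l1, which can take the place of Rpl22, had values of 5.999, 6.48 and 6.57 on the CD1 HTF arrays, against 5.46, 5.65 and 5.50 on the B6 HTF arrays, without overlap (0.81 ± 0.56 (SE), and 0.30 without background correction), while over all arrays it ranged from 4.59 to 7.77.

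Rpl36al had no overlap between the strains on ISM1 medium, with values of 11.66, 11.56 and 12.73 on the CD1 ISM1 arrays, against 11.46, 11.43 and 11.001 on the B6 ISM1 arrays and a difference of 0.69 ± 0.42 (SE). It was 0.31 without CD1 ISM1 replicate 3 and 0.26 with median scaling. Its partner Rpl36a differed by 0.42 in the same comparison. Rps27l, a p53 target, ranged from 13.86 to 14.70, and Rpl7l1, which acts in the assembly of the large subunit, from 8.79 to 11.07. A second Rpl7l1 probe, detected on 21 arrays, had CD1 minus B6 differences of -1.29 in vivo, -1.11 in HTF and -1.42 in ISM1. On the brighter probe they were -0.17, -0.09 and 0.22, so the strain difference depended on the probe. In KSOM the second probe overlapped between the strains (6.36 in CD1, against 8.13, 7.92 and 5.16 in B6). Near-identical copies and processed pseudogenes are common in this family, and a probe can take up signal from more than one of them, so that the values of paralogs remain uncertain.

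Where a gene had more than 1 detected probe, the probes did not always move together. For 13 additional probes of 11 genes, the sign of the difference matched that of the brighter probe used for the gene in 5 to 12 cases per comparison. The probes of Rpl29 (r = 0.87), Rpl21 (0.67) and Rpl4 (0.62) followed each other over the 22 arrays, while those of Rps9 (0.06), Rps24 (-0.06) and Rpl31 (-0.31) did not. Those of Rpl7l1 (0.29) differed in the strain comparisons given above.

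The machinery that makes and uses ribosomes had 0 called genes in any of the 17 comparisons, list by list. This held for the 28 of 39 translation initiation factors that were measured, with medians of -0.26 to 0.20 over the comparisons, and for the 11 elongation and termination factors (-0.20 to 0.08). It held for 58 of 73 ribosome assembly genes (-0.21 to 0.19), 9 of 18 genes of RNA polymerase I, which transcribes ribosomal RNA (-0.16 to 0.25), and 10 of 15 genes of mTORC1 and the control of ribosomal protein mRNA (-0.24 to 0.26). The 8 of 10 genes of the p53 list had medians of -0.35 to 0.56. The 71 of 76 mitochondrial ribosomal proteins, which belong to the separate ribosome of that organelle, had medians of -0.22 for B6 HTF against in vivo and 0.14 for CD1 HTF against in vivo, beside -0.19 and 0.02 for the cytosolic ones. Of the ribosomal proteins with other names, Fau was measured, with differences from -0.75 to 0.89 over the comparisons.

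The CD1 KSOM group had 1 array, and nothing was tested on it. On this array 15 of the 64 genes were above all 9 other CD1 arrays, where 8.09% of all genes were, and 2 were below them, where 7.18% of all genes were. The 15 were Rpl10, Rpl12, Rpl19, Rpl23a, Rpl29, Rpl31, Rpl34, Rpl35a, Rpl37a, Rps10, Rps20, Rps21, Rps27, Rps27l and Rpsa, and the 2 were Rplp0 and Rpl3l, the second of them not detected on the CD1 KSOM array. The median difference from the CD1 in vivo mean was 0.19 for the 64 genes and 0.03 for all genes. Rps27 stood at 11.18 on the CD1 KSOM array, against a highest value of 10.68 on the other CD1 arrays, and Rplp0 at 8.66, against a lowest of 8.98.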

How the data were processed

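RNA of embryonic day 3.5 blastocysts was hybridized to 22 arrays, grouped by strain and growth condition from the labels. Per the labels' protocols, 150 ng of RNA was amplified with a 12 h in vitro transcription. The submitters' processing notes name BeadStudio 3.2, RMA and lumi, with no roles. The deposited table gives linear bead intensities, not normalized between arrays, and a detection p-value per probe. The authors also deposited a table of log2 values, used as an alternative.

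Intensities were background-corrected and quantile-normalized with limma 3.58.1 in R 4.3.3 (neqc on detection p-values, offset 16). The filter (detection p below 0.05 in 3 or more arrays) kept 12992 of 25697 probes. The kept probe with the highest mean stood for a gene, giving 9345 genes, named through the platform annotation; 23978 probes had 1 symbol, 0 several and 1719 none. One linear model estimated the 8 group means from every array together (14 residual and 3.51 prior degrees of freedom), with two-sided tests, Benjamini-Hochberg adjustment over all genes and a call at adjusted p under 0.05. The procedure was tested on simulated data. All 64 genes matched the RefSeq table by Entrez gene identifier, and the start sequences are RefSeq's (GRCm38.p6).

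The genes and lists were chosen with earlier results of these data known. The text names, per contrast, up to 3 genes in each direction whose arrays do not overlap, those with the 6 highest and 6 lowest SDs, those with the 5 highest and 5 lowest correlations with the others, and a list of stalk genes, paralogs and genes with known further roles. Genes with an unadjusted p under 0.05 and those at the ends of component 1 were chosen after their values were seen. Alternatives changed background correction, normalization, filter, probe choice, prior, covariate, array weights, samples fitted and replicates. The number of arrays limits the precision.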

Additional observations from a re-analysis of the deposited data

How the results depend on the processing

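The count of 0 called genes held in all 17 contrasts under 10 of the 12 other settings and with any array left out, and failed under 2. With arrays scaled to a common median, 7 of the 64 ribosomal protein genes were called for CD1 against B6 in vivo (all lower in CD1) and 5 for CD1 against B6 averaged over conditions (Rpl29, Rps10, Rps13, Rps16 and Rps6, all lower). Of all 9345 genes, 579 (6.2%) and 556 (5.95%) were then called lower in these comparisons. The median differences of the 64 genes then became 0.37 for CD1 HTF against in vivo, -0.27 for CD1 ISM1 against HTF, -0.51 for CD1 against B6 in vivo, -0.25 for CD1 against B6 in ISM1 and 0.64 for the strain difference in the HTF effect. The medians of all genes moved too, to 0.46, -0.21, -0.49, -0.32 and 0.48, and relative to those the 64 genes stood at -0.09, -0.05, -0.01, 0.07 and 0.16. With estimated array weights, which ran from 0.276 to 5.62, the calls were 7 for B6 HTF against in vivo (Rpl23a, Rpl29, Rpl31, Rplp0, Rps16, Rps26 and Rps4x, all lower), 3 for B6 ISM1 against in vivo (Rpl14, Rpl27a and Rpl39l), 1 for B6 KSOM against HTF (Rpl29), 1 for B6 KSOM against ISM1 (Rpl39l) and 3 for B6 ISM1 against HTF (Rpl39l, Rps16 and Rps19bp1). The all-gene counts for these 5 comparisons under the weights were 1159, 1329, 221, 555 and 669. The cause of these calls was not tested.

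Leaving out 1 array at a time moved the median for B6 KSOM against in vivo between -0.13 and 0.18, the upper end without B6 in vivo replicate 3. The difference of Rpl23 for CD1 HTF against in vivo was 0.0214 with the mean of its kept probes, against -0.38 with the brightest probe. Arrays with the same replicate number did not deviate together: the correlation of their deviations from the group means ran from -0.72 to 0.52 over 63 pairs (median 0.00). With the replicate number as a block, 0 genes of the 64 were called in all 17 contrasts and the medians were unchanged to the digits given, for example -0.19 for B6 HTF against in vivo. Slide as a block was not run, since the headers name no slide. Signal near background limits genes such as Rps23, Rpl3l, Rpl21 and Rps15a.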
